A study of Mus musculus with 8 samples.

Results

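The genes that build and anchor the basement membrane were followed in RNA of single mouse blastocysts on embryonic day 3.5. Members were chosen by symbol, as laminins (Lama, Lamb, Lamc), collagens (Col), integrins (Itga, Itgb), the nidogens Nid1 and Nid2, fibronectin (Fn1), Sparc, perlecan (Hspg2) and agrin (Agrn). Of 22810 genes in the deposited counts, 88 symbols matched, and 84 remained after the leukocyte integrin gene Itgb2 and the X-linked genes Col4a5, Col4a6 and Itgb1bp2 were left out. The rule uses symbols and no measured value. Blastocysts came from natural matings in both directions between C57BL/6 (B6) and Mus musculus castaneus (cast) mice, and were lysed without culture. In the forward cross the mother was B6 and the father cast (embryos 1, 2 and 3), and in the reverse cross the mother was cast and the father B6 (embryos 1, 2, 3, 5 and 7). Each embryo gave 2 read counts per gene, those of its maternal and of its paternal allele, from reads covering a SNP between the strains. The maternal allele was therefore B6 in forward and cast in reverse embryos.

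A basement membrane is a thin sheet of extracellular matrix under an epithelium. Laminins are trimers of an alpha, a beta and a gamma chain that polymerise on the cell surface, type IV collagen forms a second network of alpha chains, and nidogens and perlecan join both. Integrins are receptors of an alpha and a beta subunit that hold cells to this matrix. In the blastocyst the primitive endoderm is known as a strong producer of laminin and type IV collagen and later lays down Reichert's membrane, while trophectoderm cells use integrins at implantation.

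The 84 members held 36545 of 11056179 reads (0.331%), from 0.249% in reverse embryo 7 to 0.438% in forward embryo 1. Total depth was 1060063 to 1632695 reads per embryo, and B6 alleles held 57.4% to 58.3% of them. Laminins took 34.5% of the member reads (11 genes, 12592 reads), and Sparc, Nid1, Nid2, Fn1, Hspg2 and Agrn together took 29.2% (10687 reads). The 17 integrin alpha genes had 4638 reads, the 7 integrin beta genes 1722, the 4 type IV collagen genes 3694 and the 35 other collagen genes 1310. A further 4 genes matched by name alone (Itgb1bp1, Itgb3bp, Col4a3bp and Itgbl1, 1902 reads) and encode neither matrix proteins nor integrin subunits in the strict sense. At least 100 reads were counted for 33 members and fewer than 10 for 19. The chains of the fibrillar collagen of bone and skin, Col1a1 and Col1a2, had 1 read each. A read is counted only where it covers a SNP, so read numbers depend on the SNPs of a gene and levels were not compared between genes.

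Some libraries stood apart from the rest. In reverse embryo 1 the 6 trophectoderm markers summed to 857 CPM (reads scaled to a common library size), against 3722 to 5249 in the other 7 embryos, and the primitive endoderm markers in the table (9 of 10) were at their highest sum, 2100 against 931 to 1565. Lrp2 alone gave 1392 of these 2100, while Sox17 was at its lowest there (2.52, against 9.85 to 52.0), Gata4 was at 20.2 (against 12.9 to 129 in the others) and Sox7 had no reads, so the list did not move one way. The 8 leukocyte markers summed to 695 CPM in forward embryo 1 and to 3.93 to 40.3 elsewhere, and 1134 of the 1137 leukocyte marker reads of that embryo were maternal. Stroma markers, which would mark fibroblasts that make collagen, summed to 13.8 to 52.0 CPM (5 of 7 in the table). The 4 epiblast markers summed to 121 to 217 CPM. A difference in the number of cells of a type and a difference in RNA per cell cannot be told apart in whole embryos.

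**Figure D1:**
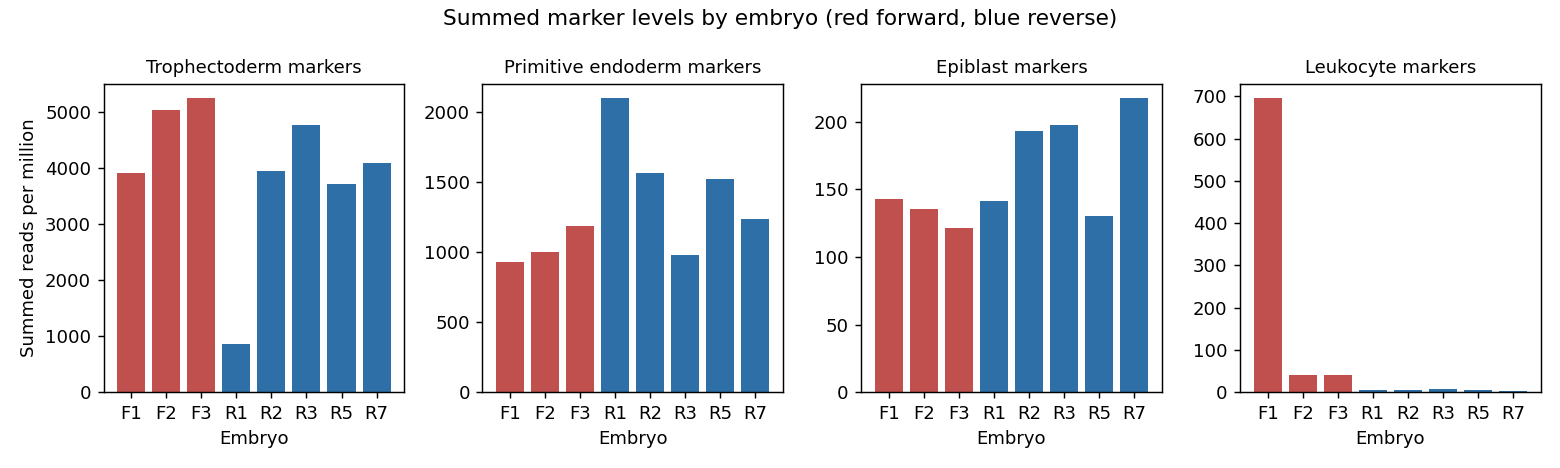
Summed CPM (vertical axes, from 0) of trophectoderm, primitive endoderm, epiblast and leukocyte markers, 1 bar per embryo (F forward in red, R reverse in blue). Reverse embryo 1 had 857 CPM of trophectoderm markers and forward embryo 1 had 695 of leukocyte markers.

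The laminin chains of the early embryo were read in every blastocyst and differed in how far they varied. Lama1, the alpha chain of the first embryonic laminin (chr17:67697259-67822647 of GRCm38, mm10, as are all gene positions here, + strand), had 568, 468 and 686 CPM in forward embryos 1, 2 and 3. In reverse embryos 1, 2, 3, 5 and 7 it had 148, 63.0, 771, 183 and 147 CPM. Reverse embryo 3 was above all forward embryos, and the other 4 reverse embryos were below all of them. Lamb1, the partner beta chain (chr12:31265234-31329644, + strand), had 470, 414 and 380 CPM in forward and 243, 152, 382, 405 and 371 in reverse embryos, so that the crosses overlapped. Lamc1, the gamma chain (chr1:153218922-153332786, - strand), had 258, 320 and 257 in forward and 206, 97.1, 226, 203 and 143 in reverse embryos, with every forward embryo above every reverse embryo. Lama5, the alpha chain that later replaces Lama1 in most epithelia (chr2:180176373-180225859, - strand), was the steadiest of the 4, with 127, 135 and 130 in forward and 141, 195, 113, 143 and 186 in reverse embryos. Its highest embryo was 1.72 times its lowest, against 12.3 times for Lama1.

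The 2 chains of the main type IV collagen, Col4a1 (chr8:11198423-11312826, - strand) and Col4a2 (chr8:11312805-11449287, + strand), are neighbours in opposite directions. Col4a1 had 243, 174 and 198 CPM in forward and 105, 160, 149, 104 and 84.6 in reverse embryos, and the lowest forward embryo lay above the highest reverse embryo. Col4a2 had 226, 167 and 195 in forward and 192, 197, 181, 204 and 121 in reverse embryos, and the crosses overlapped. The annotated starts of both genes share 22 bases (chr8:11312805-11312826 of GRCm38.p6, + strand, RefSeq), shown because reads from that stretch cannot be given to either gene without strand. Capitals mark a GC box:
Col4a1 and Col4a2: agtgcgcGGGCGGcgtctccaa

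Among the linkers and matricellular proteins, Sparc, a secreted protein that binds collagen (chr11:55394500-55423183, - strand), varied most between embryos. It had 635, 305 and 417 CPM in forward and 68.7, 522, 1235, 597 and 402 in reverse embryos, an 18.0-fold range set by reverse embryos 1 and 3. Nid1, nidogen, which bridges laminin and type IV collagen (chr13:13437551-13512269, + strand), had 301, 376 and 204 in forward and 180, 95.1, 169, 98.5 and 91.5 in reverse embryos. Every forward embryo lay above every reverse embryo. Fn1, fibronectin (chr1:71585520-71653200, - strand), had 319, 169 and 171 in forward and 219, 152, 118, 128 and 137 in reverse embryos. The integrin genes with the most reads were Itga1, the alpha subunit of a collagen receptor, with 93.4 to 228 CPM across embryos, and Itga6, the alpha subunit of laminin receptors, with 1148 reads in all. Itgb1, the shared beta subunit, had 557 reads.

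**Figure D2:**
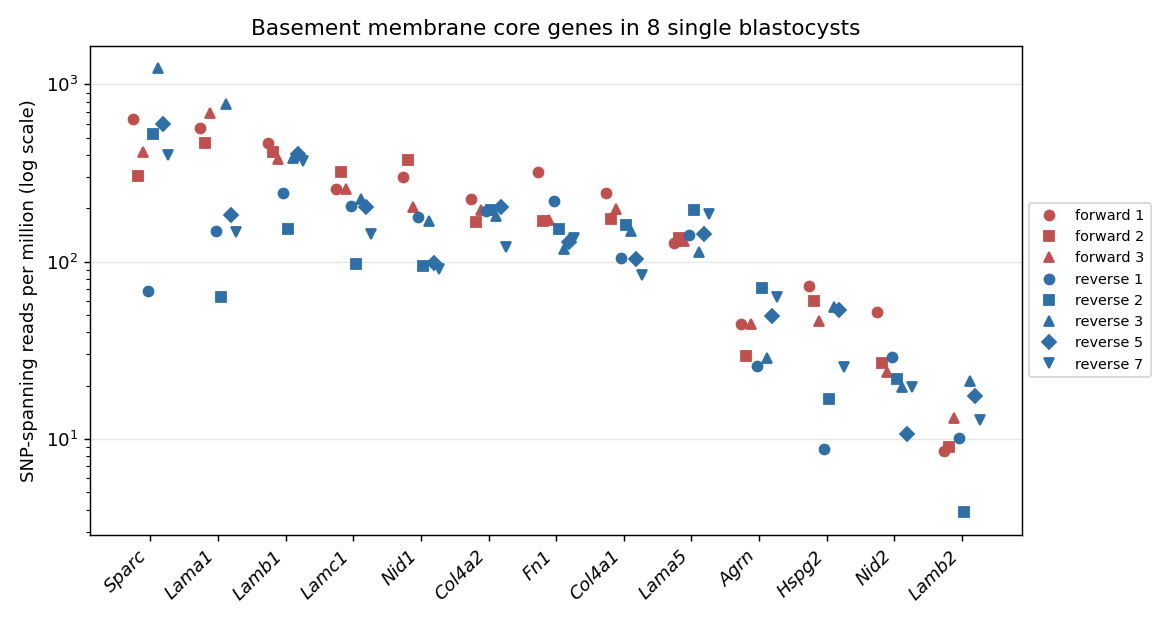
Levels of 13 basement membrane core genes in each embryo, in CPM of SNP-spanning reads on a log scale (forward embryos red, reverse embryos blue, 1 symbol per embryo number). Lama1 ran from 63.0 to 771 and Sparc from 68.7 to 1235, while Lama5 stayed between 113 and 195.

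The study asked which genes are expressed by parent of origin, and the first comparison put paternal against maternal alleles. None of the 48 members with enough reads was called (edgeR quasi-likelihood test over 12564 autosomal genes, Benjamini-Hochberg adjusted p of at most 0.1), where 1.42% of all genes tested were called. At an unadjusted p under 0.05 there were 3 members, and DESeq2 also called 0. The median log2 paternal over maternal difference was 0.06 over the members and -0.01 over all genes, and 25 of 48 were above 0. The other 36 members had too few reads to test. The log2 differences had standard errors from 0.23 to 2.44 (median 0.66). Parental differences were therefore hard to detect for most members. Large ones also went uncalled, such as that of Col13a1 (log2 -1.96, SE 0.64, edgeR adjusted p = 0.231).

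The alleles of 1 embryo are a true pair, and with a term for each embryo 2 members were called, where 3.1% of all genes were. Lama1 was then higher from the paternal allele (log2 0.88, SE 0.24, edgeR adjusted p = 0.0539), while without that term the difference was 0.19 (SE 0.65, adjusted p = 1.0). Its reads were 547 maternal and 381 paternal, 310 and 213, and 479 and 352 in forward embryos 1 to 3. In reverse embryos 1, 2, 3, 5 and 7 they were 26 maternal and 209 paternal, 7 and 91, 484 and 461, 31 and 208, and 14 and 135. Paternal reads made up 41.4% ± 0.863 (SD, n = 3) in the forward cross and 81.6% ± 18.5 (SD, n = 5) in the other, so that the 4 embryos with mostly paternal reads were all of 1 cross, in which the father was B6. The same fit called Lama1 higher from the B6 allele (log2 1.06, SE 0.24, edgeR adjusted p = 0.00238), against 0.37 (adjusted p = 0.812) without the embryo term.

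Col13a1, a collagen that spans the cell membrane (chr10:61838236-61979108, - strand), was higher from the maternal allele with the embryo term (log2 -2.30, SE 0.63, edgeR adjusted p = 0.0523), against -1.96 (SE 0.64, adjusted p = 0.231) without it. Its reads were 69 maternal and 0 paternal, 76 and 0, and 76 and 8 in forward embryos. In reverse embryos they were 17 maternal and 2 paternal, 9 and 9, 15 and 21, 1 and 45, and 5 and 8. Maternal reads prevailed in every forward embryo and in reverse embryo 1, and paternal reads in reverse embryos 3, 5 and 7.

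The opposite question is whether both parental alleles were equivalent, within 2-fold. By a pair of one-sided edgeR quasi-likelihood tests with a log2 margin of 1, 16 of 48 members (33.3%) were equivalent at an adjusted p of at most 0.1, where 35.4% of all genes were. They were the laminin chains Lama5 (adjusted p = 0.0170), Lamb1 (0.0306) and Lamc1 (0.0628), both type IV collagen chains Col4a1 (0.0271) and Col4a2 (0.0972), the linkers Nid1 (0.0779), Agrn (0.0514) and Fn1 (0.0429), and the receptor subunits Itga3 (0.0385), Itga5 (0.0475), Itga6 (0.0731), Itgae (0.0864), Itgb1 (0.0393) and Itgb5 (0.0583). The Col4a1 and Lama5 calls held in 14 of 14 alternatives and that of Col4a2 in 3 of 14. The name matches Itgb1bp1 (0.0762) and Col4a3bp (0.0791) completed the 16 by the same edgeR test. Lama5 had 119 maternal and 89 paternal reads, 78 and 73, and 72 and 86 in the forward cross, then 104 and 120, 122 and 182, 70 and 69, 92 and 95, and 87 and 102 in the reverse cross. Col4a1 had 195 and 203, 103 and 91, and 118 and 122 in the forward cross, then 84 and 82, 126 and 123, 82 and 101, 69 and 67, and 23 and 63 in the reverse cross. Both genes were near balance, except for Col4a1 in reverse embryo 7, where 73.3% of reads were paternal. Fitted differences can lie within the margin and still point one way in every embryo. Col4a2 had 126 maternal and 244 paternal reads, 70 and 116, and 114 and 122 in the forward cross, then 79 and 226, 127 and 179, 109 and 113, 130 and 137, and 48 and 75 in the reverse cross. Paternal reads were ahead in 8 of 8 embryos, and the difference was not called (log2 0.55, SE 0.24, edgeR adjusted p = 0.554, or 0.112 with the embryo term). Leaving out forward embryo 1, 2 or 3 left 8, 3 and 3 equivalent members, while the share of all genes fell to 17.0%, 14.6% and 12.9%. Without reverse embryo 7 there were 8 (28.3% of all genes) and without reverse embryo 5 there were 10 (27.5%). With the embryo term 17 were equivalent, Sparc in addition (edgeR adjusted p = 1.52e-04), beside 45.3% of all genes.

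Several receptor and matrix genes departed from their usual shares in 1 embryo. Itga1 had 3 maternal against 271 paternal reads in reverse embryo 1, where 98.9% of reads were paternal, against 48.7% to 78.6% in the other 7 embryos. Itgb5, a beta subunit of vitronectin receptors, had 8 maternal against 131 paternal reads there, a paternal share of 94.2% against 34.4% to 66.0% elsewhere. Fn1 had 58 against 289, a paternal share of 83.3% where the others had 40.1% to 60.3%. The shift in that embryo was not confined to these 3 genes. Over the 32 members with at least 10 reads in reverse embryo 1 the median paternal share was 78.7%. In the other reverse embryos the median was 53.1% to 62.5%. Of all reads of reverse embryo 1, 57.4% were from B6, there the paternal allele. A median share over all genes is not given here, so the member median has no such background. Reverse embryo 1 also had the low trophectoderm markers, and the part of its cell makeup was not tested. Col26a1, a secreted collagen, had 94 maternal against 2 paternal reads in reverse embryo 3, while the other 4 reverse embryos held 0 maternal and 1 to 7 paternal reads each. Hspg2 had no usual share, with 32.8% to 95.6% paternal reads over the 8 embryos. These embryos were picked out after their values were seen, and the departures were not tested.

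**Figure D3:**
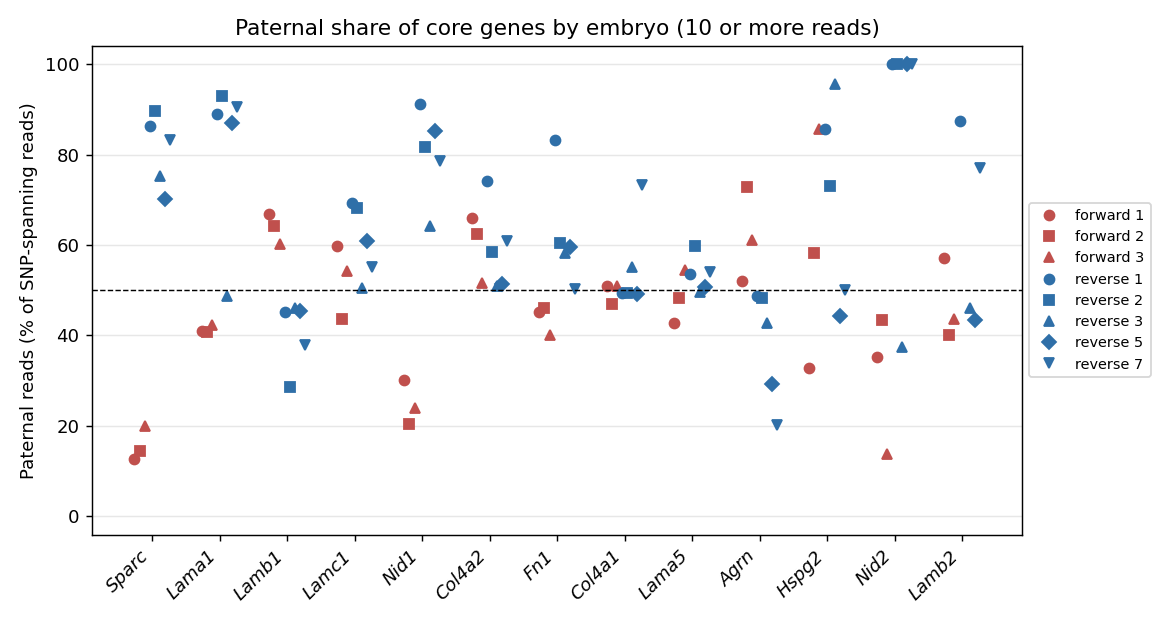
Paternal share of the reads of 13 core genes in each embryo with at least 10 reads (percent; dashed line at 50, forward embryos red, reverse blue). Sparc and Nid1 lay below 50% in all forward and above it in all reverse embryos, Lamb1 the other way round, and Lama1 was at 48.8% in reverse embryo 3.

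More members differed by the strain of the allele than by the parent. B6 against cast alleles differed for 13 of 48 members (27.1%) by the edgeR quasi-likelihood test at an adjusted p of at most 0.1, where 15.4% of all genes were called. Toward B6 there were 11 members (10.9% of all genes) and toward cast 2 (4.47% of all genes). At an unadjusted p under 0.05 there were 19. A gene such as Itga2 or Itgam passed the filter on low reads through the B6 library in which it was high, so these counts describe the tested members and are no support for a direction. The median log2 B6 over cast difference was 0.47 over the members, also with alleles of 0 reads set at a floor of 3 reads, and 0.06 over all genes. Each allele library was scaled on its own, which removes the overall excess of B6 reads but not one of a single gene. Reads were aligned to mm10, which is the B6 strain, and a loss of cast reads at mapping was not tested. Read ratios and floor folds given below are of unscaled reads and still hold the overall excess. With 1 library size per embryo instead, 16 members were called toward B6 (18.3% of all genes) and 0 toward cast (2.6%), and the median of all genes moved to 0.39. By family, 4 of 10 tested integrin alpha genes, 4 of 11 tested other collagens, 3 of 6 linkers and matricellular genes and 2 of 9 tested laminins were called, and 0 of 3 type IV collagens and 0 of 6 integrin beta genes. Of the summed reads, the B6 allele held 73.7% in the linker and matricellular group, 70.9% in the other collagens, 62.4% in the integrin alpha genes, 52.4% in the laminins and 51.7% in type IV collagen. Over all genes it held 57.4% to 58.3% per embryo. Such sums are set by the genes with most reads. Sparc and Nid1 gave 4455 and 1563 of the 7877 B6 reads of the linker and matricellular group, in which Agrn was called toward cast.

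**Figure D4:**
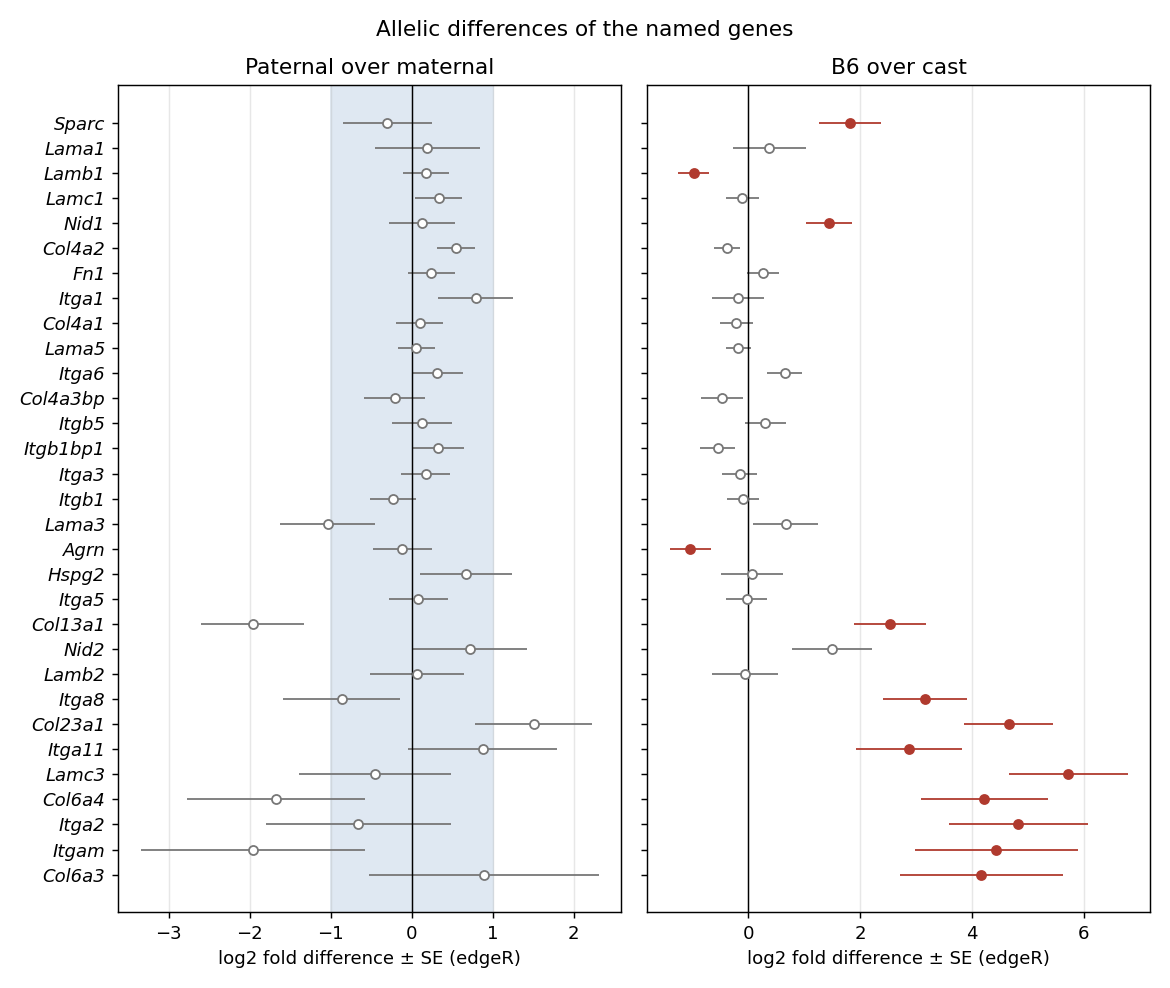
Fitted log2 differences with standard errors (edgeR) for the 31 named genes, paternal over maternal on the left (shaded band, the equivalence margin) and B6 over cast on the right (filled red points, adjusted p of at most 0.1). No gene was called on the left and 13 were called on the right; Lamc3, Itga2, Itgam and Col6a3 had 0 cast reads, so their fitted values depend on the prior count.

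Of the genes with over 1000 reads, 3 were called, and they did not point one way. Sparc had 908 maternal and 131 paternal reads, 292 and 49, and 404 and 101 in the forward cross, then 15 and 94, 84 and 728, 373 and 1140, 233 and 549, and 69 and 340 in the reverse cross. The B6 allele held 70.2% to 89.7% of reads in all 8 embryos (log2 1.82, SE 0.56, edgeR adjusted p = 0.0344). Nid1 had 344 and 149, 334 and 86, and 188 and 59 in the forward cross, then 25 and 260, 27 and 121, 74 and 133, 19 and 110, and 20 and 73 in the reverse cross. Its B6 share was 64.3% to 91.2%, also above 50% in all 8 embryos (log2 1.44, SE 0.42, edgeR adjusted p = 0.0255). Lamb1 went toward cast, with 255 maternal and 513 paternal reads, 165 and 297, and 183 and 277 in the forward cross, then 211 and 174, 169 and 68, 252 and 216, 289 and 241, and 234 and 143 in the reverse cross. The cast allele was ahead in all 8 embryos (log2 -0.98, SE 0.28, edgeR adjusted p = 0.0236). Agrn, the other member toward cast, had 475 reads, a B6 share of 20.3% to 48.8% and a log2 difference of -1.04 (SE 0.36, edgeR adjusted p = 0.0686).

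Leaving out forward embryo 1 took away the calls of Sparc (edgeR adjusted p = 0.189), Lamb1 (0.1004), Agrn (0.139) and Col6a3 (0.247), and Itga2 and Itgam then had too few reads to be tested. With 1 library size per embryo Lamb1 had a log2 difference of -0.64 (edgeR adjusted p = 0.131) and Agrn -0.70 (0.217). Without reverse embryo 1 all 13 calls held, Itga6 was added toward B6 (edgeR adjusted p = 0.0414), and Col26a1, named after its values were seen, was added toward cast (log2 -2.40, 0.0772). The Agrn call was also lost on leaving out any of forward embryos 2 and 3 and reverse embryos 5 and 7. That of Itga11 was lost on leaving out any of forward embryos 2 and 3 and reverse embryos 2 and 7 (edgeR adjusted p of up to 0.177). Col6a3 and Itgam were called in 6 and 8 of their 13 alternatives. With the embryo term 14 members were called (25.5% of all genes), 12 toward B6 (15.7%) and 2 toward cast (9.88%). Lama1, Nid2 (log2 2.24, edgeR adjusted p = 0.0159) and Itga6 (log2 0.73, 0.0193) joined, and Itgam and Col6a3 dropped out. In this paired fit Sparc had a log2 difference of 1.95 (SE 0.16, edgeR adjusted p = 9.29e-10). Lamb1 had -1.02 (SE 0.13, 2.26e-06) and Nid1 had 1.52 (SE 0.205, 3.685e-06), all with smaller standard errors than without the term. The fits that left out an embryo had no embryo term.

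The upstream stretches of the 2 members toward cast and of 2 members toward B6 are shown as the reference sequence next to an annotated start of each. Which start was in use was not measured. They are RefSeq sequences of GRCm38.p6 (mm10), which is the B6 strain. Cast bases were not used here. Exons were trimmed off, and each stretch is written along its gene. Capitals mark the GC box GGGCGG and the CCAAT box, found on either strand. In windows of 250 bases before all annotated starts the GC box occurred in 32.7% and CCAAT in 33.8%. The GATA box (AGATAA and its forms with G as the last or T as the first letter, in 26.5% of windows) and a Sox motif (ACAATG, or the same with a final A, in 17.4%) were searched on both strands and not found in these 4 stretches. The stretches lie at chr12:31265043-31265233 (+, Lamb1), chr4:156197489-156197738 (-, Agrn), chr13:13437352-13437550 (+, Nid1) and chr11:51289670-51289919 (+, Col23a1):
Lamb1: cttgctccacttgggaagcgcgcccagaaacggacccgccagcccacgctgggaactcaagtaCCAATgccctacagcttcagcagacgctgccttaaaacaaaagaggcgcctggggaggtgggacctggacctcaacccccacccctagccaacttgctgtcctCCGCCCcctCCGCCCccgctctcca
Agrn: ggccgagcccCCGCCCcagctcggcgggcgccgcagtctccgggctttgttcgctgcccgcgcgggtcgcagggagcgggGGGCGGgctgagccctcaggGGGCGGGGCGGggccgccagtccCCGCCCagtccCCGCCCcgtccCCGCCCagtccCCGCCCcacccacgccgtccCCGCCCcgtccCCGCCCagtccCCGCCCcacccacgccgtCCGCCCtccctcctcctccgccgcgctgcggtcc
Nid1: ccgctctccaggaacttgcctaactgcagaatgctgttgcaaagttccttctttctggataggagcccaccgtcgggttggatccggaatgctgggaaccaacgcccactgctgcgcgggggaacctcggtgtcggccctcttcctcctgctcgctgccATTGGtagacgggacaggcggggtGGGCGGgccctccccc
Col23a1: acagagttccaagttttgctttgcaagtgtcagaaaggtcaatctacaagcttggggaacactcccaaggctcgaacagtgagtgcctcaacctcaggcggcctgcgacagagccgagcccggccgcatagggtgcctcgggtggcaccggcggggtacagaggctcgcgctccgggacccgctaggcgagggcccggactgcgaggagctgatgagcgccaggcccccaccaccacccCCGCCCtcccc
The Agrn stretch held 12 GC boxes, counting overlapping ones, Lamb1 had 2 and Nid1 and Col23a1 had 1 each. A second annotated start of Agrn, with 2 GC boxes in the stretch before it (chr4:156186260-156186509), is not shown. A CCAAT box was found in Lamb1 and Nid1.

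**Figure D5:**
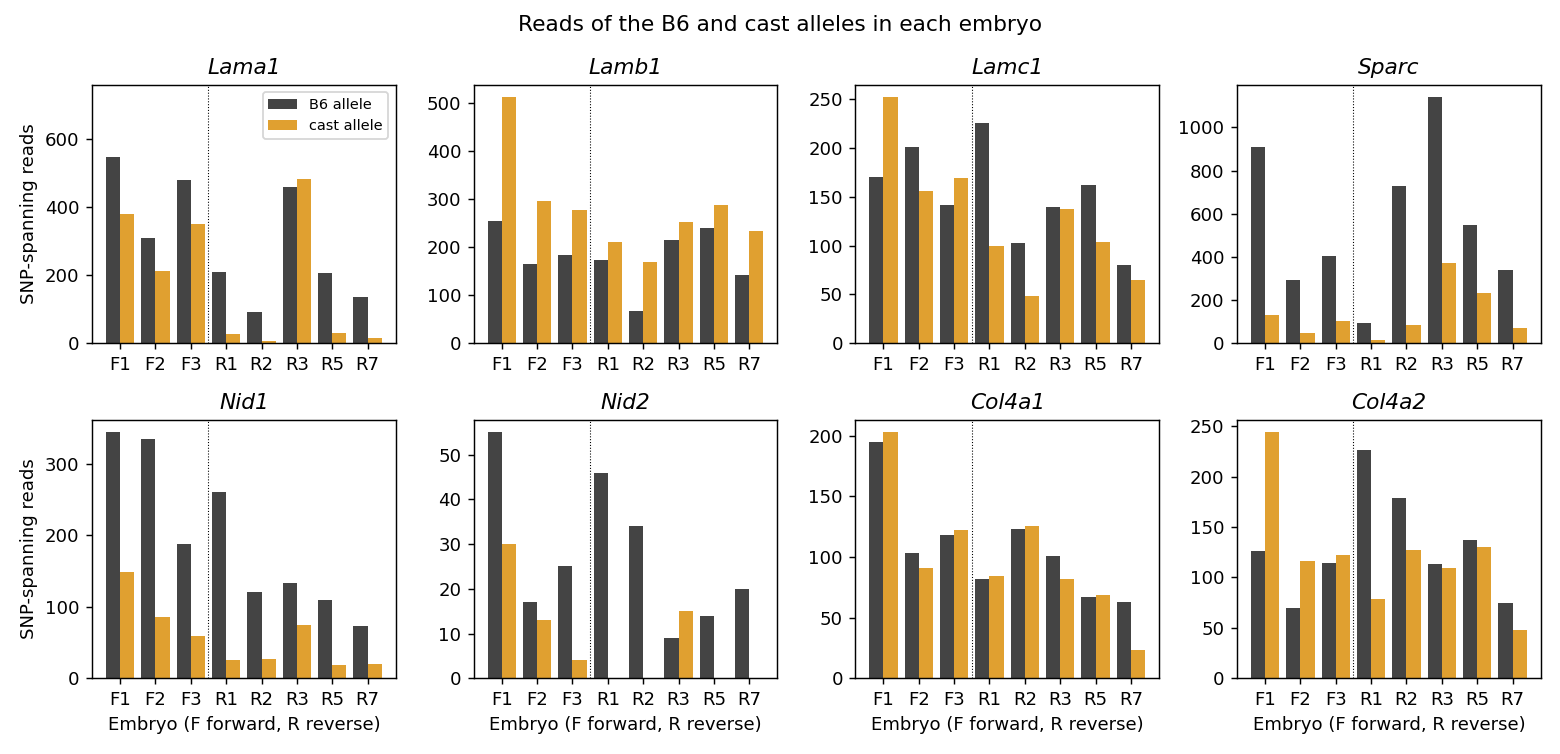
SNP-spanning reads of the B6 (dark) and cast (yellow) allele of 8 core genes in each embryo, forward embryos left of the dotted line. Sparc and Nid1 had more B6 reads and Lamb1 more cast reads in all 8 embryos, and Nid2 had 0 cast reads in reverse embryos 1, 2, 5 and 7.

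The other called members had few reads. Col23a1, a collagen of the cell membrane, had 10 maternal and 0 paternal reads, 7 and 0, and 5 and 2 in the forward cross, then 0 and 44, 0 and 15, 0 and 10, 0 and 7, and 0 and 16 in the reverse cross. It thus had 114 B6 and 2 cast reads, a ratio of 57.0 (95% exact binomial interval 15.4 to 476, counting error only, edgeR adjusted p = 2.41e-04). Lamc3, a laminin gamma chain, had 54 B6 and 0 cast reads in all 8 embryos, at least 18.0-fold higher from B6 against a floor of 3 reads over the series (edgeR adjusted p = 0.00159). Itga8 had 30 maternal and 1 paternal reads, 7 and 0, and 9 and 0 in the forward cross, then 1 and 35, 3 and 11, 0 and 6, 5 and 9, and 1 and 4 in the reverse cross (log2 3.15, SE 0.75, edgeR adjusted p = 0.00627). The B6 allele was ahead in all 8 embryos. Col13a1 was also called toward B6 (log2 2.53, SE 0.65, edgeR adjusted p = 0.0106), as was Itga11, a collagen receptor subunit (log2 2.87, adjusted p = 0.0518). Col6a4 had 43 B6 reads and 1 cast read, a ratio of 43.0 (95% exact binomial interval 7.32 to 1737, edgeR adjusted p = 0.0156), and 28 of them came from forward embryo 3.

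Itga2, another collagen receptor subunit, had 29 B6 and 0 cast reads (at least 9.67-fold, edgeR adjusted p = 0.0171), and Col6a3 had 20 and 0 (at least 6.67-fold, adjusted p = 0.0824). Itgam, an integrin of leukocytes, had 22 B6 and 0 cast reads (at least 7.33-fold, edgeR adjusted p = 0.0650). Of these, 16 were maternal reads of forward embryo 1, the library with the leukocyte markers. The part of that embryo's leukocyte transcripts in the Itgam result was not tested.

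At 10 or more reads, members read from a single allele were read from B6. Over 257 combinations of a member and an embryo with at least 10 reads, 28 (10.9%) had B6 reads alone and 0 had cast reads alone. Over all autosomal genes 5.24% of 77880 combinations were B6 alone and 1.45% cast alone. Combinations of the same gene are not independent. Col23a1 was among the 28 in forward embryo 1 and reverse embryos 1, 2, 3 and 7, and Nid2 in reverse embryos 1, 2, 5 and 7. Nid2, the second nidogen (chr14:19751265-19811787, + strand), had 55 maternal and 30 paternal reads, 17 and 13, and 25 and 4 in forward embryos. In reverse embryos 1, 2, 5 and 7 it had 0 cast and 46, 34, 14 and 20 B6 reads, which over the 4 embryos (0 of 114) allows a cast share of up to 2.63%. In reverse embryo 3 it had 15 cast and 9 B6 reads. Lama1 had a like division, with 87.0% to 92.9% B6 reads in the same 4 reverse embryos and 48.8% in reverse embryo 3. These embryos were set apart after their values were seen, and the division was not tested.

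The forward and the reverse cross differ in the strain of the mother and of the father, so that these and litter or stage cannot be told apart. On summed reads of both alleles, none of 33 members tested was called (edgeR quasi-likelihood test, 3 forward against 5 reverse embryos, adjusted p of at most 0.1), where 0.0668% of all genes were called. At an unadjusted p under 0.05 there were 4 members, and DESeq2 called 1, Nid1, where it called 1.3% of all genes. Nid1 was 293.8 ± 86.3 CPM (SD, n = 3) in the forward cross, against 126.8 ± 43.7 (SD, n = 5) in the other (log2 1.21, SE 0.33, edgeR adjusted p = 0.361, DESeq2 adjusted p = 0.0942). Without reverse embryo 1 the edgeR adjusted p of Nid1 was 0.0347 (log2 1.37), and without reverse embryo 3 that of Lama1 was 0.0522 (log2 2.09, against 1.13 and 0.743 with it). The share of all genes called rose as well, to 1.5% without reverse embryo 1 and to 0.447% without reverse embryo 3. In reverse embryo 1 the trophectoderm marker sum was also the lowest, and its part in these changes was not tested. Col4a1 had a log2 difference of 0.77 (edgeR adjusted p = 0.578) and Col13a1 of 1.57 (0.397).

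Laminin and type IV collagen chains are subunits of shared trimers. For this reason 4 relations of log2 levels across the 8 embryos were computed, with exact permutation tests over all 40320 pairings and Benjamini-Hochberg adjustment over the 4. Lamb1 and Lamc1 had r = 0.78 (exact p = 0.0243, adjusted 0.0487) and rho = 0.76 (exact p = 0.0368, adjusted 0.147), and r = 0.50 without reverse embryos 1 and 2. Lama1 and Lamb1 had r = 0.77 (exact p = 0.0155, adjusted 0.0487) and rho = 0.62 (exact p = 0.115, adjusted 0.202), and r = 0.59 without reverse embryos 2 and 3. Col4a1 and Col4a2 had r = 0.61 (exact p = 0.0989, adjusted 0.132) and rho = 0.43 (exact p = 0.299, adjusted 0.299), and r = -0.43 without forward embryo 1 and reverse embryo 7. Lamb1 and the summed primitive endoderm markers Gata4, Gata6, Sox17 and Pdgfra had r = 0.53 (exact p = 0.171, adjusted 0.171) and rho = 0.57 (exact p = 0.151, adjusted 0.202), and r = 0.49 without the 2 farthest embryos. The laminin relations rested on reverse embryo 2, without which r was 0.33 for Lamb1 with Lamc1 and 0.54 for Lama1 with Lamb1. Within the 5 reverse embryos r was 0.72 for Lamb1 with Lamc1 and 0.70 for Lama1 with Lamb1, and each cross holds too few embryos for a test of its own.

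The adhesion genes that act inside the cell with integrins (talins, vinculin, kindlins and their partners) were all tested, 13 of 13. None was called between parents, and Parva was called toward B6 (log2 2.95, SE 0.51, edgeR adjusted p = 2.93e-04). None was called between crosses. Parental equivalence held for 7 of 13, namely Ilk, Lims1, Ptk2, Pxn, Tln1, Tln2 and Vcl. For this list and the next, the shares of all genes were 1.42% called between parents, 15.4% by strain and 0.0668% between crosses. Parental equivalence held for 35.4% of all genes. Of the 20 genes of collagen making and matrix receptors 18 were in the table and 13 were tested. Timp3, an inhibitor of metalloproteinases, was called toward paternal (log2 5.43, SE 0.94, edgeR adjusted p = 0.00149). It had 0 maternal reads in 7 embryos and 2 in reverse embryo 7, against 26, 7 and 32 paternal reads in forward and 0, 10, 10, 8 and 8 in reverse embryos. By strain, the collagen chaperone Serpinh1 (log2 3.39, edgeR adjusted p = 3.12e-04) and the prolyl hydroxylase P4ha2 (log2 3.28, adjusted p = 0.00163) were called toward B6, and the tetraspanin Cd151 (log2 -2.07, adjusted p = 1.83e-04) and the lysyl hydroxylase Plod2 (log2 -1.64, adjusted p = 0.0199) toward cast. Of 12 tested between crosses 0 were called, and 7 of 13 were equivalent between parents (Dag1, Loxl3, P4ha1, P4hb, Plod1, Plod3 and Sdc4).

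Exons of 22 members overlap those of another gene on the other strand and of 5 on the same strand, and strand use in counting is not given in the sources used here. Among the genes described here, values of Col4a1, Col4a2, Col4a3bp, Col6a4, Fn1, Nid1, Nid2, Itga1, Itga8, Itgam, Itgb1bp1, Itgb3bp and Lamc3 are uncertain to that extent. Nothing in the labels says that the embryos of a cross came from separate litters, so p-values cover these embryos only. The parental, strain and equivalence fits without the embryo term took both alleles of an embryo as independent libraries. Their p-values therefore measure the spread between allele libraries. The fits with the embryo term compare alleles within embryos, and p-values between crosses measure the spread between embryos. Reads were amplified without molecular identifiers, and intervals and floors cover counting error only.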

How the data were processed

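RNA of 8 single blastocysts was read allele by allele. The authors lysed each embryo, amplified it with a SMART-Seq2 compatible protocol, and aligned reads to mm10 with STAR (2.6.0c in the methods, 2.5.2b in the processing notes, which also list SAMtools 1.9-92 and bedtools). They left out reads mapping to several places and kept those covering annotated SNPs. The deposited counts are whole reads over SNPs, given for each gene by embryo and strain and not normalized.

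Groups came from the labels, and alleles were called maternal or paternal by cross. Of 22810 genes, 21054 had an autosomal position (GENCODE or RefSeq, matched by symbol or synonym) and 645 lay on the X. A further 1111 had none, and only autosomal genes were tested. The members and gene lists were chosen with earlier results of these data known. Genes named are the 20 members with the most reads, every called member and a core of 13.

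edgeR 4.0.16 (R 4.3.3, limma 3.58.1) fitted the 16 allele libraries with TMM factors, strain and parent as terms and the quasi-likelihood test with package defaults. Genes needed 10 reads in at least 1 allele library, or in 3 embryos for the crosses. Benjamini-Hochberg adjustment ran over all genes tested, with a threshold of 0.1. DESeq2 1.42.0, RLE factors, 1 library size per embryo, other filters and thresholds, a term for each embryo and leaving out each embryo were alternatives. Levels are CPM on TMM-scaled library sizes. Permutation tests used numpy 2.4.6, with ranks from scipy 1.17.1. The alleles of 1 embryo deviated together (r = 0.0719 to 0.444). The tests were first tried on simulated data. Sequences are RefSeq. Of the members, 60 had a promoter entry, and 12 of the 13 called by strain.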

Additional observations from a re-analysis of the deposited data

Results flagged for a closer look

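In the 5 reverse embryos 1 value stood far from the other 4 in 7 of 50 sets of values tested. The rule is built to flag about 1 in 20 sets of independent, normally distributed values. Genes of the same embryos and levels from few reads are not such values, so 7 of 50 is no measure of an excess. Lama1 had 771 CPM in reverse embryo 3, against 63.0 to 183 in the others, and its paternal share there was 48.8%, against 87.0% to 92.9%. Col4a2 had 121 CPM in reverse embryo 7, against 181 to 204, and the paternal share of Col4a1 in that embryo was 73.3%, against 49.3% to 55.2%. Col4a3bp had 203 CPM in reverse embryo 1, against 38.4 to 79.4. Itgam had 2.52 in reverse embryo 1, against 0 to 0.643, and Col6a3 had 10.8 in reverse embryo 7, against 0 to 1.63, both from few reads.

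The parental difference of a gene called by strain differs between the crosses by construction, and the strain term of the edgeR fit is the test of that difference. The adjusted p of that term was 0.0686 for Agrn, 0.0106 for Col13a1, 2.41e-04 for Col23a1, 0.0824 for Col6a3, 0.0156 for Col6a4, 0.0518 for Itga11, 0.0171 for Itga2, 0.00627 for Itga8, 0.0650 for Itgam, 0.0236 for Lamb1, 0.00159 for Lamc3, 0.0255 for Nid1 and 0.0344 for Sparc.

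Of the 4 symbols left out of the members, Itgb2 had 33 reads, 27 of them maternal in forward embryo 1. Col4a5 had 8, Col4a6 had 15 and Itgb1bp2 had 18.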

How the results depend on the processing

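Of 1808 recomputed values of the 31 named genes, 1694 kept their side of the threshold, 95 lost a call, 19 gained one and 0 of the called ones changed direction. Of uncalled parental and cross differences of these genes, 16 changed sign in at least 1 alternative. With a term for each embryo (the replicate block), parental calls were 1 paternal and 1 maternal instead of 0, and no filter gave 1 maternal. Leaving out 1 embryo gave 0 to 1 maternal calls. Of all genes, 3.1% were called by parent with the embryo term, 1.96% with no filter and 0.961% to 1.64% leaving out 1 embryo. Calls toward B6 (11) were 18 with no filter, 3 with at least 10 reads in every embryo (fewer genes tested), and 7 to 12 leaving out 1 embryo. Calls toward cast (2) were 1 at an adjusted p of 0.05, 0 with 1 library size per embryo, 4 with no filter, and 0 to 3 leaving out 1 embryo. In either direction, strain calls took 13.0% of all genes with no filter and 14.8% with at least 10 reads in every embryo. They took 11.1% at 0.05, 20.9% with 1 library size per embryo and 9.89% to 20.5% leaving out 1 embryo. Cross calls (0) were 1 with DESeq2 and 0 to 1 leaving out 1 embryo. Of all genes, 1.3% were called with DESeq2 and 0.0194% to 1.5% leaving out 1 embryo. Equivalent members (16) were 7 at 0.05 and 3 to 16 leaving out 1 embryo. The share of all genes was 22.1% at 0.05 and 12.9% to 47.4% leaving out 1 embryo. Centred on the mean of each cross, r was 0.68 for Lamb1 with Lamc1 and 0.67 for Lama1 with Lamb1, neither past the threshold. Leaving out 1 embryo, r was 0.33 to 0.89 for Lamb1 with Lamc1, 0.54 to 0.84 for Lama1 with Lamb1, 0.22 to 0.77 for Col4a1 with Col4a2 and 0.23 to 0.75 for Lamb1 with primitive endoderm markers. Where not named, the cause was not tested. Embryo numbers 1 to 3 occur in both crosses without a stated pairing (deviations correlated at 0.178, 0.0064 and 0.126, and 3 of 3 numbers correlated best with their own). With the number as a block, 0 members and 4 of all genes were called between these 6 embryos, and without it 0 and 1, the latter fit chosen after seeing the data. With 3 forward embryos and few SNP-spanning reads, 36 members could not be tested between alleles and 51 not between crosses.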
